A study of Bos taurus with 12 samples.

Results

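GHR, the receptor for growth hormone, and IGF1, the growth factor that the liver releases when that receptor is engaged, were followed in liver RNA from 12 Holstein calves. The members are 2 of the 27570 genes counted, ENSBTAG00000001335 (GHR) and ENSBTAG00000011082 (IGF1), and both were among the 14924 genes with enough reads to test. They were named by identifier, with earlier results of these data known. The count tables give Ensembl identifiers alone, so both names come with the choice of the genes. All 12 calves were kept in groups, 6 under heat stress and 6 with cooling, from birth until they were weaned, and liver was taken by biopsy at 42 days of age. A biopsy is bulk tissue, in which fewer hepatocytes and less RNA per hepatocyte cannot be told apart.

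Growth hormone from the pituitary binds GHR on hepatocytes, and the receptor signals through the kinase JAK2 and the transcription factor STAT5, which acts on IGF1 among other genes. Liver-made IGF1 circulates, drives growth of bone and muscle, and feeds back on the release of growth hormone. In cattle this axis is known to follow nutrition: when feed energy is short, hepatic GHR and circulating IGF1 fall while growth hormone can stay high.

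Total counts per library ran from 22910846 to 32240168. Cooled calves 2 and 3 gave nearly equal values of GHR, but not of IGF1. Their GHR levels were 367.6 and 367.7 CPM (CPM expresses reads per gene relative to the size of the library, here with factors from the trimmed mean of M values, TMM), the closest of all 66 pairs of calves. Their IGF1 levels, 156 and 169 CPM, differed by more than counting error between these 2 libraries (p = 0.000118, two-sided exact binomial test). In IGF1 other pairs were closer, such as cooled calf 5 and heat-stressed calf 2, at 231 and 230 CPM. Cooled calf 2 and heat-stressed calf 1 were also closer, at 156 and 157 CPM. Results are also given with cooled calves 2 and 3 summed where this changes them. The other genes of the axis and markers of liver cell types were not examined, because the reference gene table paired 0 of the identifiers with a symbol.

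GHR stood at similar levels in heat-stressed and cooled calves and varied widely within each group. In the cooled calves it was 549 CPM in calf 1, 368 in calf 2, 368 in calf 3, 402 in calf 4, 443 in calf 5 and 542 in calf 6. In the heat-stressed calves it was 523 CPM in calf 1, 533 in calf 2, 310 in calf 3, 369 in calf 4, 278 in calf 5 and 578 in calf 6. The highest and the lowest of all 12 values were therefore both in heat-stressed calves, and 3 of these 6 calves lay within the range of the cooled ones. The means were 445 CPM ± 82.6 (SD, n = 6) with cooling and 432 CPM ± 128 (SD, n = 6) under heat stress.

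The difference in GHR was well inside the spread between calves. The log2 fold change of heat-stressed over cooled was -0.04 (SE 0.206, edgeR's quasi-likelihood test, Benjamini-Hochberg adjusted p = 0.936 over 14924 genes). Its 95% interval ran from -0.48 to 0.39, which is 0.716-fold to 1.31-fold, so these data leave room for a moderate change in either direction. Of all genes tested, 10.7% had a smaller absolute fold change than GHR. The difference in mean log2 CPM was -0.08 (95% interval -0.58 to 0.43, p = 0.695, two-sided exact permutation test). The sign of the edgeR fold change turned positive when cooled calf 1, cooled calf 6, heat-stressed calf 3 or heat-stressed calf 5 was left out, with upper-quartile scaling and with limma-voom quality weights, so GHR has no stable direction here.

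IGF1 was lower on average in heat-stressed calves, and 3 of them held the lowest values of the study. The cooled calves stood at 215 CPM in calf 1, 156 in calf 2, 169 in calf 3, 160 in calf 4, 231 in calf 5 and 228 in calf 6. The heat-stressed calves stood at 157 CPM in calf 1, 230 in calf 2, 100.3 in calf 3, 76.4 in calf 4, 102 in calf 5 and 209 in calf 6. Heat-stressed calves 3, 4 and 5 were below every cooled calf, and calves 1, 2 and 6 were inside the cooled range. The means were 193 CPM ± 35.0 (SD, n = 6) with cooling and 146 CPM ± 63.2 (SD, n = 6) under heat stress.

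**Figure D1:**
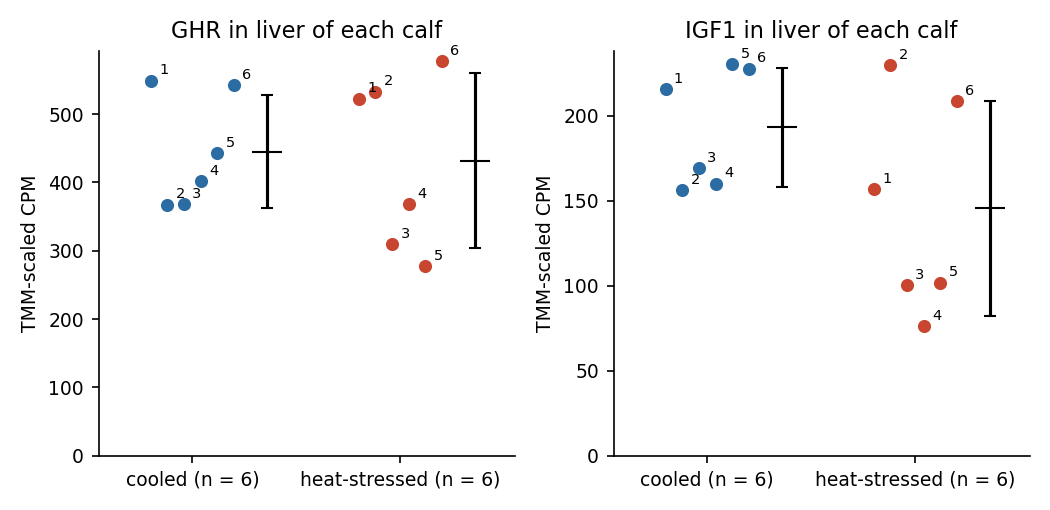
TMM-scaled CPM of GHR (left) and IGF1 (right) in each calf, cooled in blue and heat-stressed in red, with calf numbers beside the points and black bars for the mean ± SD of 6 calves. GHR overlaps between the groups, while IGF1 in heat-stressed calves 3, 4 and 5 (76.4 to 102 CPM) lies below the lowest cooled calf (156 CPM).

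The lower IGF1 did not pass the test between the groups. The log2 fold change was -0.41 (SE 0.251, edgeR adjusted p = 0.554 over 14924 genes), with a 95% interval of -0.94 to 0.13, or 0.520-fold to 1.09-fold. The unadjusted edgeR p was 0.125. In the same fit 9.37% of genes had an unadjusted p under 0.05 and 0% an adjusted p under 0.05, and neither GHR nor IGF1 was among them. In 0.389% of genes the groups did not overlap at all, and both members overlapped. Of all genes tested, 84.6% had a smaller absolute fold change than IGF1.

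As a difference in mean log2 CPM, which weights low calves more, IGF1 was lower by 0.50 (difference -0.50, 95% interval -1.14 to 0.16, p = 0.0952, two-sided exact permutation test). This result depended on single heat-stressed calves. Without calf 2, the heat-stressed calf with the most IGF1, the difference was -0.66 (p = 0.0260, exact permutation test), and without calf 6 it was -0.63 (p = 0.0498, exact permutation test). Without calf 4, the lowest, it was -0.34 (p = 0.208, exact permutation test). In the edgeR fit without calf 2 the 95% interval excluded 0, from -1.10 to -0.07, with an adjusted p of 0.751.

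Reads were plentiful enough that counting error was a minor part of this spread. GHR had 7355 to 16260 reads per calf and IGF1 had 2411 to 6695. The counting error of a single library was at most 1.17% for GHR and 2.04% for IGF1. For the lowest IGF1 value, 76.4 CPM in heat-stressed calf 4, the exact Poisson 95% interval was 73.4 to 79.5 CPM, covering counting error only. Across calves the coefficient of variation of GHR was 18.5% with cooling and 29.7% under heat stress. For IGF1 it was 18.1% with cooling and 43.4% under heat stress.

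The spread of IGF1 was wider among the heat-stressed calves. Its highest heat-stressed value was 3.01 times its lowest, against 1.48 times among the cooled calves. The SD of log2 CPM was 0.641 under heat stress and 0.264 with cooling, and the mean absolute deviation from the group median differed by 0.308 (p = 0.00216, two-sided exact permutation test, the smallest p it can give, 0.00433 after Benjamini-Hochberg adjustment over the spread tests of both genes). For spread, exact means only that all assignments were counted. Deviations from a group's own median or mean are not fully exchangeable between groups, so the p-values of these spread tests are approximate. A wider spread under heat stress was common: 15.4% of all genes tested were wider at p under 0.05 in this test, 121 genes were narrower, and 725 genes reached the p of IGF1. For GHR the SDs were 0.449 and 0.262 and the deviations differed by 0.177 (p = 0.0758, exact permutation test, also 0.0758 after adjustment over both genes), or p = 0.0411 when deviations were taken from the group mean (exact permutation test). The adjusted call for IGF1 was lost with any library left out or merged, while the difference in deviation itself stayed positive. With cooled calves 2 and 3 summed the difference was 0.342 (p = 0.0433, adjusted p = 0.0758, exact permutation test). Without 1 cooled calf the p was 0.0433 to 0.0498, and 0.0563 to 0.0866 after adjustment (exact permutation tests). Without heat-stressed calf 1, 3 or 5 the difference was 0.292, 0.280 and 0.292, close to the full value, with p = 0.303, 0.0931 and 0.0844 (exact permutation tests). Without calf 2, 4 or 6 it was 0.182, 0.201 and 0.210, with p = 0.370, 0.104 and 0.359 (exact permutation tests). In a group of 5 the median is a calf itself, whose deviation is then 0.

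Seen against other genes, GHR was typical in its variation and IGF1 was above the middle. Within groups the SD of log2 CPM was 0.368 for GHR, and 52.3% of the 14924 genes had a smaller one. For IGF1 it was 0.490, and 74.6% of genes had a smaller one. Among the 1358 genes with a mean within 1 log2 CPM of that of IGF1 the share was 85.6%, and among the 466 genes as near to GHR it was 53.4%. The SE of the fold change was correspondingly larger for IGF1 (0.251, where the median of genes near its level was 0.179) than for GHR (0.206, where it was 0.199).

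Over the 12 calves the receptor and its target gene tended to rise and fall together, and many other genes also followed GHR. Among 12299 other genes with a mean of at least 1 log2 CPM, IGF1 ranked 677th by its r with GHR. By r with IGF1, GHR ranked 82nd. Over all 12 calves, log2 CPM of IGF1 and GHR correlated at r = 0.775 (p = 0.00313, permutation test, 0.0125 after Benjamini-Hochberg adjustment over 4 such relations) and rho = 0.692 (p = 0.0151, permutation test, 0.0303 after adjustment). Without heat-stressed calves 5 and 6, the calves farthest from the median of GHR, r was 0.725. With each group's mean removed, r was 0.828 (p = 0.0114, permutation within groups, adjusted p = 0.0228) and rho was 0.839 (p = 0.0132, permutation within groups, adjusted p = 0.0303).

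The relation had nearly the same size in each group. In the cooled calves r was 0.834 (p = 0.0819, exact permutation test over pairings) and in the heat-stressed calves it was 0.837 (p = 0.0778, exact permutation test over pairings), and rho was 0.714 in each (p = 0.136, exact permutation test). After adjustment over the 4 relations, both within-group values of r had p = 0.0819 and both values of rho had p = 0.136 (exact permutation tests), so 6 calves alone do not carry the relation past the threshold. Within the heat-stressed group, calves 3, 4 and 5 were the lower 3 in both genes and calves 1, 2 and 6 the higher 3. The gap between these sets was 0.50 log2 CPM in GHR and 0.62 in IGF1, so within this group r rests on that split and could not be tested inside either set. The cooled calves also parted, with a gap in IGF1 of 0.35 in a range of 0.56 log2 CPM. Over all 12 calves the largest gap in GHR was 0.25 log2 CPM, but in IGF1 it was 0.62 and set the same heat-stressed calves 3, 4 and 5 apart from the other 9 calves. The pooled r was not computed without these 3 calves, so how far it rests on them was not tested.

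**Figure D2:**
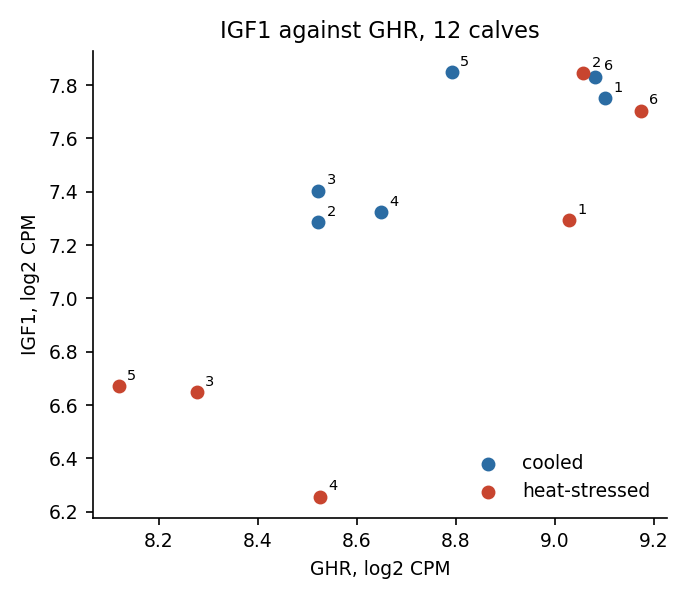
log2 CPM of IGF1 (vertical) against GHR (horizontal) for each calf, cooled in blue and heat-stressed in red, with calf numbers. The 12 points rise together (r = 0.775), and heat-stressed calves 3, 4 and 5 lie below all other points in IGF1.

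Read as a ratio, IGF1 was low relative to GHR in the heat-stressed calves. The ratio of IGF1 to GHR reads is taken within a library, so it does not depend on scaling between libraries. Because the reads are not divided by transcript length, it is compared only between calves. In the cooled calves it was 0.392 in calf 1, 0.425 in calf 2, 0.461 in calf 3, 0.399 in calf 4, 0.520 in calf 5 and 0.420 in calf 6. In the heat-stressed calves it was 0.300 in calf 1, 0.431 in calf 2, 0.323 in calf 3, 0.207 in calf 4, 0.366 in calf 5 and 0.361 in calf 6. Of the heat-stressed calves 5 of 6 had less IGF1 per GHR read than any cooled calf, and calf 2 was inside the cooled range.

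The mean ratio differed between the groups with all 12 libraries counted as separate calves, but the adjusted call was lost when any 1 cooled calf was left out. The mean log2 ratio was -1.20 ± 0.152 (SD, n = 6) with cooling and -1.63 ± 0.361 (SD, n = 6) under heat stress. It fell by 0.42 on the log2 scale (SE 0.160, 95% interval -0.78 to -0.10), to 0.746-fold, with p = 0.0130 (two-sided exact permutation test) and 0.0390 after Benjamini-Hochberg adjustment over the 3 exact tests of GHR, IGF1 and the ratio. This is also the test of whether the difference between groups was unequal for the 2 genes. With 1 calf left out, the unadjusted p was lowest, 0.00216, without heat-stressed calf 2 and highest, 0.0368, without cooled calf 5, but the p adjusted over the same 3 tests stayed under 0.05 in only 4 of 12 cases, those without heat-stressed calf 2, 3, 5 or 6, and was 0.11 without cooled calf 5 (exact permutation tests). With cooled calves 2 and 3 summed it was p = 0.0260 unadjusted and 0.0779 adjusted (exact permutation tests), so the adjusted call was lost. Without heat-stressed calf 4, which had the lowest ratio, the log2 difference was -0.30 (p = 0.0260, adjusted p = 0.0779, exact permutation test). The ratio takes IGF1 to scale with GHR at a slope of 1. With the slope fitted over the 12 calves, 1.18 log2 IGF1 per log2 GHR, in an alternative chosen after seeing the data, the difference was -0.41 (p = 0.0195 unadjusted, exact permutation test) and 4 of 6 heat-stressed calves lay below every cooled calf.

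Few genes passed as lower relative to GHR under heat stress, and many more passed as higher. Each of the other 14923 genes tested was divided by GHR in the same manner. A ratio lower under heat stress at p under 0.05 (exact permutation test) was found for 40 of them, 0.268%, IGF1 included. Of these, 6 genes including IGF1 had a p as small as that of IGF1. In the other direction 1449 of the 14923 genes had a ratio to GHR that was higher under heat stress at p under 0.05. These ratios share GHR as their denominator, so they are not independent of each other.

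**Figure D3:**
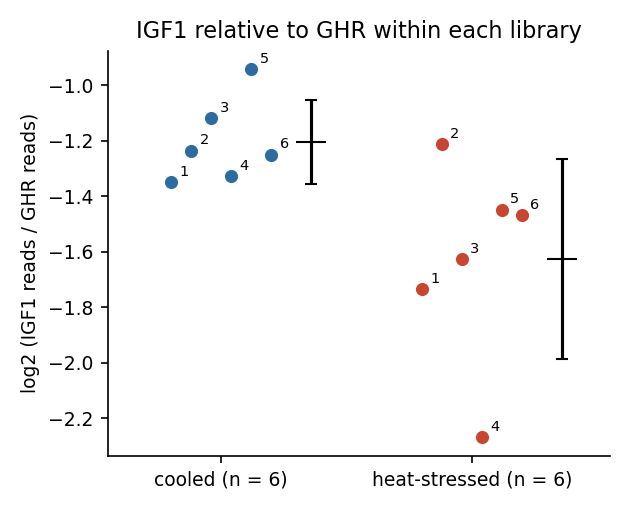
log2 of the ratio of IGF1 to GHR reads in each library, by group, with calf numbers and black bars for the mean ± SD of 6 calves. The cooled calves lie between -1.35 and -0.94, and 5 of 6 heat-stressed calves lie below them.

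GHR also followed the main axis of variation of the whole liver profile. The first principal component of log2 CPM, computed without GHR and IGF1, ran from -32.8 in cooled calf 2 to 55.7 in heat-stressed calf 6. Its sign is arbitrary and was set so that the heat-stressed mean is the higher one. GHR correlated with it at r = 0.839 over 12 calves (p = 0.000700, permutation test, 0.00350 after Benjamini-Hochberg adjustment over 10 relations with library measures) and rho = 0.881 (p = 0.000340, adjusted p = 0.00340, permutation test). Without heat-stressed calves 6 and 1, the farthest on the component, r was 0.822. Within the cooled calves r was 0.976 (p = 0.00694, exact permutation test) and within the heat-stressed calves 0.967 (p = 0.0181, exact permutation test).

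For IGF1 the relation with the component was r = 0.510 (p = 0.0889, adjusted p = 0.127, permutation test) and rho = 0.524 (p = 0.0833, adjusted p = 0.139, permutation test). Within groups r was 0.712 in cooled (p = 0.179, exact permutation test) and 0.898 in heat-stressed calves (p = 0.0847, exact permutation test). The log2 ratio of IGF1 to GHR correlated with the component at r = -0.067 (p = 0.846, permutation test, 0.990 after adjustment over 5 relations). The heat-stressed calves with high scores, 1, 2 and 6, at 43.8 to 55.7, were the higher 3 of their group in both genes, and calves 3, 4 and 5, at -28.8 to -20.8, were the lower 3. Against the cooled calves, calf 1 (157 CPM) was near the bottom of their range in IGF1, and calf 4 (369 CPM) was inside their range in GHR.

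**Figure D4:**
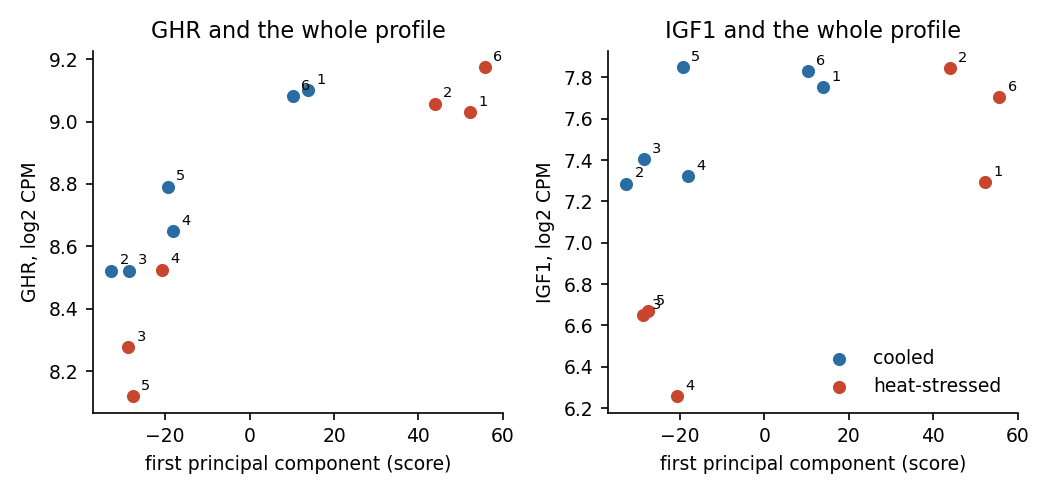
log2 CPM of GHR (left) and IGF1 (right) against the score of each calf on the first principal component of all other genes, cooled in blue and heat-stressed in red. GHR climbs with the score in both groups, and the 3 heat-stressed calves at the left are below the cooled calves at similar scores in IGF1.

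Other measures of the libraries moved with GHR as well. Whether they stand for technical or biological differences, and their part in these results, was not tested. GHR correlated with the TMM factor at r = 0.883 (p = 0.000150, adjusted p = 0.00150, permutation test), although CPM is divided by that factor. It correlated with the share of reads taken by the most abundant gene at r = 0.712 (p = 0.0110, adjusted p = 0.0368, permutation test) and with the number of genes that had a count at r = 0.680 (p = 0.0175, adjusted p = 0.0438, permutation test). The last relation was r = 0.350 with cooled calves 2 and 3 summed (p = 0.290, permutation test). Total count was not related to GHR past the threshold (r = -0.477, p = 0.117, adjusted p = 0.141, permutation test). The values of rho for these 4 measures were 0.839, 0.685, 0.608 and -0.392, with adjusted p = 0.00600, 0.0575, 0.0990 and 0.233 (permutation tests).

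For IGF1 none of the 5 library measures passed after adjustment. The TMM factor had the smallest p (r = 0.629, p = 0.0296, adjusted p = 0.0593, rho = 0.552, permutation test). Within the heat-stressed calves IGF1 correlated with total count at r = -0.895 (p = 0.00833, exact permutation test, unadjusted). Over all 12 calves that relation was r = -0.562 (p = 0.0559, adjusted p = 0.0932, rho = -0.469, permutation test). It was r = -0.289 without heat-stressed calves 6 and 4, and r = -0.146 with cooled calves 2 and 3 summed (p = 0.714, permutation test), which also sums the total counts of that pair. The log2 ratio of IGF1 to GHR had r = -0.385 with total count and 0.073 with the TMM factor. With the number of genes that had a count it was -0.281, and with the share of the most abundant gene -0.004. Adjusted p of these relations was 0.976 to 0.990 (permutation tests).

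With the first principal component as a term in the edgeR fit, an alternative chosen after seeing the data, the group differences of both genes were larger. For IGF1 the log2 fold change was -0.82 (95% interval -1.15 to -0.48, unadjusted p = 0.000147, edgeR adjusted p = 0.286), the 6th smallest p of 14924 genes. For GHR it was -0.35 (95% interval -0.55 to -0.14, unadjusted p = 0.00317, edgeR adjusted p = 0.390). Both intervals excluded 0 and neither gene passed the threshold after adjustment. The component is made from the same libraries, and whether it stands for a technical or a biological difference was not tested. With the component regressed out of both genes, GHR and IGF1 still correlated at r = 0.743 (p = 0.00542, permutation test, rho = 0.790). In the 7 calves with a score under 0 r was 0.675 (p = 0.0998, exact permutation test).

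**Figure D5:**
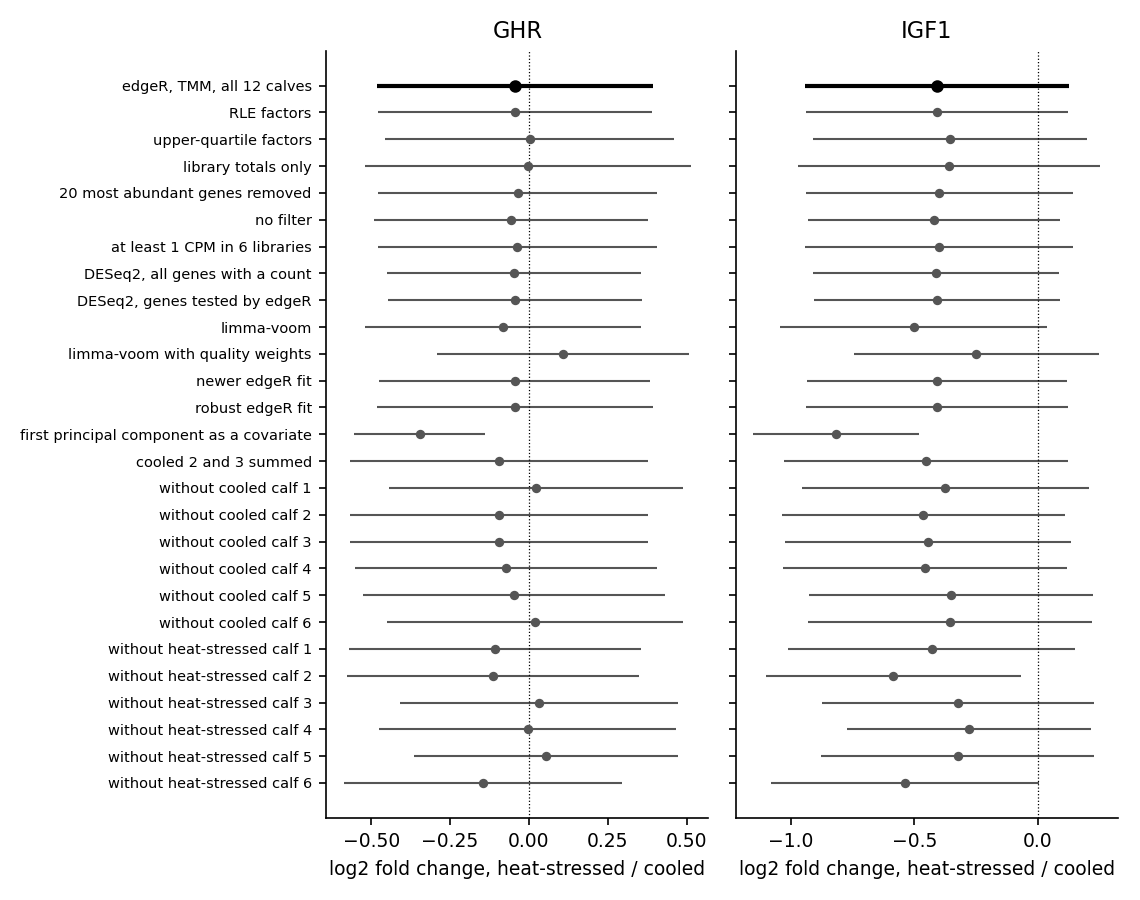
log2 fold change of heat-stressed over cooled for GHR (left) and IGF1 (right), points with 95% intervals, under the fit used here (bold, top) and 26 alternatives. IGF1 lies below 0 in each of them, from -0.82 to -0.25, and GHR lies on both sides, from -0.35 to 0.11.

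Many genes shared the pattern of GHR, and fewer that of IGF1. Among 12299 other genes with a mean of at least 1 log2 CPM, the correlation with GHR over the 12 calves ran from -0.786 at the 5th percentile to 0.784 at the 95th, and IGF1, at 0.775, ranked 677th. From the side of IGF1 the same percentiles were -0.577 and 0.607, and GHR ranked 82nd, above 99.3% of genes. The gene most like GHR was ENSBTAG00000018590 (r = 0.968, 12.6 to 22.4 CPM), and the gene most opposite was ENSBTAG00000030608 (r = -0.935, 3.81 to 8.27 CPM). The gene most like IGF1 was ENSBTAG00000025964 (r = 0.934, 18.9 to 42.7 CPM), and the most opposite was ENSBTAG00000010689 (r = -0.907, 10.4 to 35.0 CPM). These correlations are descriptions over the same 12 libraries, picked as extremes from 12299, and the files do not pair these identifiers with names.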

How the data were processed

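Liver RNA-seq of 12 calves was deposited as read counts per Ensembl gene, 1 table per calf, in whole numbers and without normalization. The submitters' processing notes name HISAT2, HTSeq, FastQC 0.11.7 and Trim Galore 0.4.4, and ARS-UCD1.2 as the build. An annotation, a strand setting and versions for the aligner and the counter were not given in the sources used here, so reads from overlapping or antisense genes may be included.

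Groups come from the treatment in the labels. Calves were numbered in listing order and each library was taken as 1 calf, as the series description counts them. If libraries share an animal, p-values measure a partly technical spread. Calves were treated as independent, and the labels do not give their housing. If calves of a group were housed together, housing and treatment cannot be told apart. Both members and all gene lists were chosen with earlier results of these data known. The rule for named genes took GHR, IGF1, a list of growth hormone axis genes by symbol and the genes most and least correlated with each member. The lists, cell type markers included, could not be used because identifiers did not match.

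Genes were filtered with filterByExpr (14924 of 27570 kept), scaled by TMM and tested two-sided with glmQLFit and glmQLFTest in edgeR 4.0.16 (R 4.3.3), Benjamini-Hochberg adjusted over all of them, threshold 0.05. Intervals use the SE and the t quantile. Log2 CPM used a prior count of 2. Exact permutation tests ran over 924 assignments of the calves, with intervals from the shifts not rejected, or over 720 pairings of 6 calves. Correlations over 7 calves used 5040 pairings, and those over 10 to 12 calves used 100000 resamples (Python 3.11.15, numpy 2.4.6, scipy 1.17.1). The ratio used the difference in log2 CPM. Alternatives used DESeq2 1.42.0 and limma 3.58.1. Gene-level and permutation tests were tested on simulated data. The principal component and fitted slope alternatives were added after seeing the data.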

Additional observations from a re-analysis of the deposited data

How the results depend on the processing

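IGF1 kept its sign in 26 of 26 alternative fits of the fold change, from -0.82 to -0.25, and its adjusted p ran from 0.286 to 0.841. GHR turned positive with upper-quartile factors (0.0023) and limma-voom quality weights (0.11), and its range over fits leaving out 1 calf was -0.15 to 0.054. Its adjusted p ran from 0.390 to 0.997. By exact permutation, leaving out 1 calf gave GHR differences of -0.18 to 0.034 and IGF1 differences of -0.66 to -0.34. The spread difference of IGF1 ran from 0.182 to 0.353 with 1 calf left out, and the value of GHR with deviations from the group mean was 0.177 and passed 0.05. The ratio kept its sign in 16 of 16 alternatives, from -0.51 to -0.30, with unadjusted p from 0.00216 to 0.0368. Adjusted over 3 tests, it stayed under 0.05 in 4 of 12 fits leaving out 1 calf (0.00649 to 0.11) and was 0.0779 with cooled calves 2 and 3 summed. The adjusted p of the IGF1 spread passed 0.05 in 0 of 12 such fits (0.0563 to 0.370) and not with that pair summed (0.0758).

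At adjusted p under 0.05 the fit called 0 genes, DESeq2 called 13 over all genes with a count and 17 on the genes tested by edgeR, and leaving out 1 calf gave 0 to 1. GHR and IGF1 were in none of these calls. At unadjusted p under 0.05 there were 1399 genes, with 841 to 2578 when 1 calf was left out and 4126 with quality weights. The correlation of GHR and IGF1 was 0.675 in calves under 0 on the first component (p = 0.0998, exact permutation test) and kept p under 0.05 in the other 18 of 19 alternatives. With library totals only, IGF1 passed 0.05 unadjusted against total count (r = -0.582) and the component (r = 0.629). With cooled calves 2 and 3 summed, GHR against the number of genes with a count was r = 0.350. Where a cause is not named, the cause was not tested. No paired analysis was possible because the labels carry no calf numbers shared between groups. Depth limits neither gene, but 6 calves per group leave intervals that reach a 1.31-fold higher GHR and a 0.520-fold lower IGF1.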

Other observations

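No calf stood apart from its own group by Dixon's criterion in GHR, IGF1 or their log2 ratio (0 of 6 tests). The nearest was heat-stressed calf 4 in the ratio, whose gap was 0.505 of the group's range.

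The wider deviation of heat-stressed calves seen for IGF1 was a feature of most genes: the mean absolute deviation was larger under heat stress in 73.4% of the 14924 genes tested, GHR and IGF1 among them.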
